A study of Mus musculus with 2 samples.

Results

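The genes described are Kcnj11, Abcc8 and Slc2a1, chosen by name as 3 of the 21888 genes listed in either of the count tables. Kcnj11 encodes Kir6.2, the pore subunit of the ATP-sensitive potassium channel. Abcc8 encodes SUR1, the sulfonylurea receptor that forms the channel's regulatory subunit. Slc2a1 encodes GLUT1, a facilitative glucose transporter. Their levels were read in 53 cells of 90 barcodes, namely 21 of 29 from fungiform papillae (FP) and 32 of 61 from the circumvallate papilla (CV). A barcode was kept when more than 500 genes were detected in it and when its Gnat3 level, as the natural log of 1 plus counts per 10000, was above 0.9.

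The cells came from adult alpha-gustducin-GFP mice on a C57BL/6J background, whose green fluorescent protein marks cells that make α-gustducin. This product of Gnat3 is the G protein subunit that taste receptors couple to. FP cells came from the front of the tongue and CV cells from the back. Both were sorted for the reporter, which selects against taste cells without it, and no untreated, mutant or dietary group was part of the comparison. Barcodes with little Gnat3 were still captured, and the limit above left them out. Among them was a CV barcode rich in Tas1r2 and Tas1r3, which is described near the end. There was 1 library for each papilla. How many animals each library held is not stated in the labels, and cells of 1 library are not replicates of a papilla.

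An ATP-sensitive potassium channel couples a cell's fuel state to its membrane potential. It is made of Kir6 pore subunits surrounded by sulfonylurea receptors, and a rise in ATP relative to ADP closes it, which depolarises the cell. In pancreatic beta cells glucose enters through a transporter, is phosphorylated and metabolised, and closes this channel. In mouse taste cells the channel and sugar transporters have been described as a possible route for detecting sugars beside the Tas1r2 and Tas1r3 sweet receptor.

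The 21 FP cells held 22646953 counts in all, from 193718 to 3190340 in a cell (median 1141644). The 32 CV cells held 29535917, from 32726 to 3447628 in a cell (median 543963). The share of counts from mitochondrial genes had a median of 11.1% in FP cells and 12.5% in CV cells, and reached 68.03% in an FP cell and 88.6% in a CV cell. No barcode was shared by the libraries. All 6 type II taste cell markers, the class that detects sweet, umami and bitter compounds, reached 10 counts per 1000000 (CPM) in both sets of kept cells. Their summed level was 3228 to 19004 CPM in FP cells and 251 to 24125 CPM in CV cells. Levels are counts pooled over kept cells and scaled to 1000000, and a cell counts as on for a gene when it has 50 CPM or more of it. In the shallowest CV cell, of 32726 counts, 3 counts came to 91.7 CPM, so on or off in such cells rests on few counts. Intervals are at 95% and leave out spread between animals and libraries. Those of levels and ratios take each count as independent and leave out spread between cells. PCR copies may be counted, so intervals of levels and ratios may be too narrow even for counting error. With 1 library a papilla no difference between the papillae could be tested.

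The pore gene Kcnj11 was high in some FP cells and in no kept CV cell. Of the 21 FP cells 7 were on (33.3%, exact binomial interval 14.6 to 56.97%), against 0 of the 32 CV cells (upper bound 10.9%). The FP cells that were on had 105, 157, 243, 279, 306, 408 and 552 CPM of Kcnj11. Among the other 14 FP cells the highest had 41.8 CPM and the median was 2.31 CPM, and 4 of the 21 FP cells had no Kcnj11 count. The highest CV cell had 12.1 CPM and 30 of 32 CV cells had none. The 14 FP cells that were off, at 0 to 41.8 CPM, overlapped the range of the CV cells. Other listed genes near the pooled FP level of Kcnj11 (139 CPM) were also on in part of the 21 FP cells. Pfkfb3 was on in 10 (134 CPM), Igf1r in 10 (129 CPM) and Tas1r3 in 8 (132 CPM). Being on in part of the FP cells is thus not particular to Kcnj11.

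Pooled Kcnj11 came to 3145 counts in FP cells, or 139 CPM (Poisson interval 134 to 144), and to 23 counts in CV cells, or 0.779 CPM (0.494 to 1.17). The ratio of FP to CV was 178 (119 to 282), and the log2 ratio after 10 CPM was added to each was 3.79. Adding 10 CPM understates the change of low genes. Of the 10918 genes that reached 10 CPM in a library, 16.98% were 2-fold or more higher in FP on that scale and 21.04% were 2-fold or more higher in CV. Kcnj11 held rank 8 from the FP side. No cell made up the FP level by itself, since the highest held 25.8% of the counts and leaving out the top cell of both libraries gave a log2 ratio of 3.58. In CV, 22 of the 23 counts lay in 1 cell.

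**Figure D1:**
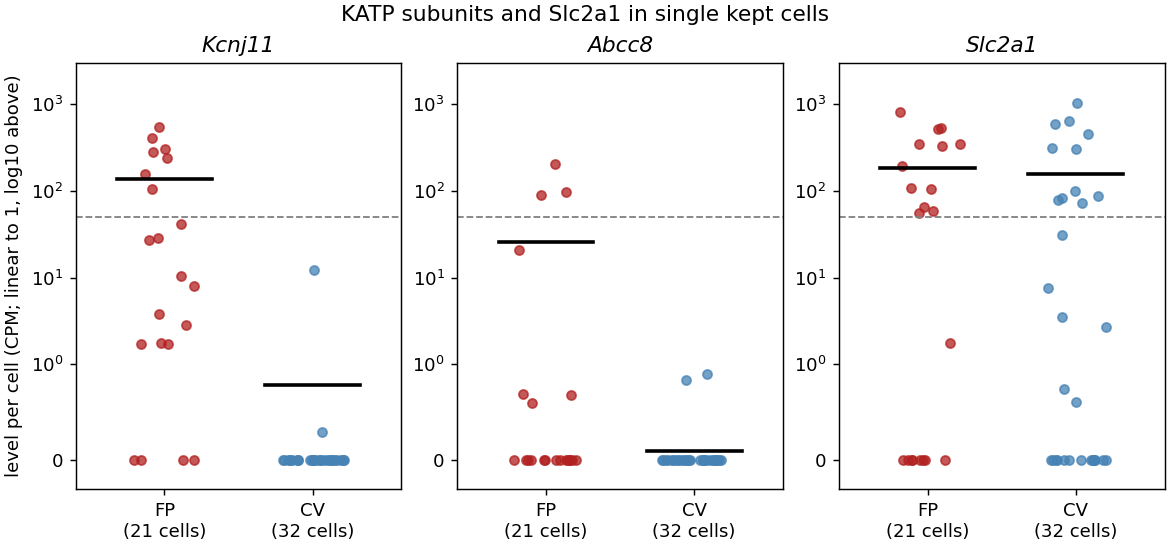
Level of Kcnj11, Abcc8 and Slc2a1 in every kept cell, in CPM, with FP cells left of CV cells; the black line is the pooled level and the dashed line is 50 CPM. Kcnj11 lies above the dashed line in 7 of 21 FP cells and in none of 32 CV cells, while Slc2a1 lies above it in 12 FP cells and 11 CV cells.

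Cell depth moved with Kcnj11. The FP cells that were on had 914630 to 3190340 counts (median 1468662), against 193718 to 1458420 (median 838895) in the other FP cells, and across the 21 FP cells the level of Kcnj11 and the total count had a Spearman rho of 0.64. Among cells with at least 914630 counts, of which there were 14 in each library, Kcnj11 was on in 7 FP cells (50%, 23.04 to 76.96%) and in 0 CV cells (upper bound 23.2%). All 14 of these FP cells had at least 1 Kcnj11 count, while 12 of these 14 CV cells had none. The limit of 914630 counts is the lowest total among the FP cells with Kcnj11 on, so it kept all 7 of them by its choice, and the part of depth in the difference was not tested.

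Low counts of Kcnj11 were spread more widely in FP. At 1 count or more it was found in 17 of the 21 FP cells (81.0%), against 2 of the 32 CV cells (6.25%). The same low counts stood in FP barcodes outside the kept set. Of the 5 that were rich in the keratinocyte gene Krt13 (1000 CPM or more), 3 had a Kcnj11 count, at most 3 counts and 2.81 CPM, with a median depth of 356319 counts. Krt13 itself had at least 1 count in all 21 kept FP cells and in 2 of 32 kept CV cells. Single counts of Kcnj11 thus also stood in barcodes of another cell type, and the shares at 50 CPM are the ones compared between the papillae.

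The regulatory subunit gene Abcc8 was on in fewer FP cells and rested largely on a single one. It was on in 3 of 21 FP cells (14.3%, 3.05 to 36.3%), at 207, 98.1 and 90.8 CPM, and in 0 of 32 CV cells (upper bound 10.9%). Those FP levels stood on 349, 112 and 114 counts. Below them came 4 counts in an FP cell of 193718 counts (20.6 CPM) and 1 count in each of 3 FP cells, and 14 FP cells had none. In CV 2 cells had 2 counts and 1 count, and the others had none.

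Pooled Abcc8 came to 582 counts in FP cells, or 25.7 CPM (23.7 to 27.9), and to 3 counts in CV cells, or 0.102 CPM (0.0209 to 0.297). The ratio of FP to CV was 253, with a counting interval of 86.1 to 1230. The log2 ratio after adding 10 CPM was 1.82, rank 435 of 10918. The highest FP cell held 59.97% of the counts, and without the highest cell of each library the levels were 11.1 CPM in FP and 0.0366 CPM in CV, a log2 ratio of 1.07. With no Gnat3 limit FP had 16.8 CPM and CV had 5.99 CPM of Abcc8, and the log2 ratio of 0.74 was under 2-fold. Among the 14 cells of each library with at least 914630 counts, Abcc8 was on in 3 FP cells and 0 CV cells.

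The genes of the channel lie side by side. On mm10, Kcnj11 (ENSMUSG00000096146.2) spans chr7:46093953-46100764 and Abcc8 (ENSMUSG00000040136.10) spans chr7:46104523-46180033, both on the minus strand, with 3758 bases between them. Kcnj11 overlaps no other annotated gene. Abcc8 overlaps Gm45487 and the antisense gene Gm45486. Slc2a1 (ENSMUSG00000028645.11) spans chr4:119108711-119137983 on the plus strand and overlaps Mir1957a and the antisense genes Gm12867 and Gm12868. Whether counting used strand is not stated in the labels, so reads of Abcc8 and Slc2a1 cannot be told apart from reads of those antisense partners. None of the overlapping genes was listed with counts of its own in either library.

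Pore and regulatory subunit were seldom high in the same cell. In FP both were on in 1 cell, Kcnj11 alone in 6, Abcc8 alone in 2 and neither in 12. Abcc8 was thus on in 1 of 7 FP cells with Kcnj11 on (14.3%, 0.361 to 57.9%), against 2 of 14 with Kcnj11 off (14.3%, 1.78 to 42.8%). The cell with both, FP cell 15, had 105 CPM of Kcnj11, the lowest of the 7, and 207 CPM of Abcc8, the highest of all. Of the other 6 Kcnj11 cells, 4 had no Abcc8 count and 2 had 1 count each. With 914630 counts or more in each, a floor of 3 counts in these cells was 0.940 to 3.28 CPM, far below the 90.8 CPM of the lowest cell with Abcc8 on. That floor covers read depth only. Among glycolysis genes in the 7 FP cells with Kcnj11 on, Pgk1 (161 CPM pooled) was on in 4 and Eno1 (277 CPM) in 5. Aldoa (416 CPM) was on in 6, and Tpi1 (438 CPM) and Gapdh (715 CPM) were on in all 7. Genes of higher pooled level than Abcc8 were thus also off in some of these cells. PCR copies may be counted, and whether Abcc8 transcripts were missed at capture was not tested.

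The 2 FP cells with Abcc8 on and Kcnj11 off had 1.75 and 10.4 CPM of Kcnj11, from 2 and 13 counts. Across the 21 FP cells, which share a library and differ in depth, Pearson's r between the genes was -0.10 and Spearman's rho 0.11. Counting any cell with 1 count or more, 6 of 17 FP cells with Kcnj11 had Abcc8 (35.3%), against 7 of all 21 FP cells (33.3%). In CV no cell was on for either gene, and the 2 cells with a Kcnj11 count were not the 2 with an Abcc8 count. The intervals of the shares are wide enough that neither co-occurrence nor its lack was shown at this number of cells.

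**Figure D2:**
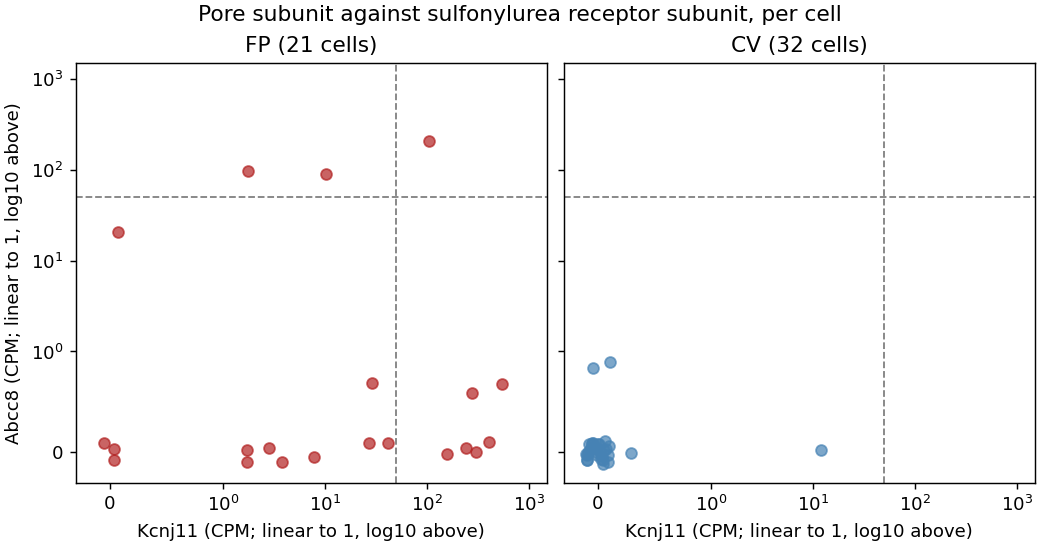
Kcnj11 against Abcc8 in each kept cell, in CPM, with FP cells in the left panel and CV cells in the right panel; dashed lines mark 50 CPM, and cells at 0 are spread slightly so that they can be seen. Of the FP cells, 1 is on for both genes, 6 for Kcnj11 alone and 2 for Abcc8 alone, and the highest CV cell reaches 12.1 CPM of Kcnj11.

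Of the other genes of this channel family, Abcc9 was low. This gene, which encodes the sulfonylurea receptor SUR2 of heart and vascular muscle, had 0.530 CPM (0.274 to 0.926) in FP cells and 6.13 CPM (5.27 to 7.09) in CV cells, where it was on in 1 cell. Kcnj8, the other Kir6 pore gene, was not analysed here. Of the family members analysed, Kcnj11 and Abcc8 reached 10 CPM. Among other inward rectifier potassium channels, 10 of the 13 listed genes were in the tables and 2 reached 10 CPM. Kcnj2, which sets the resting potential in heart and skeletal muscle, had 53.9 CPM in FP cells and 130 CPM in CV cells (log2 ratio -1.14). Kcnj5, a G protein gated channel subunit, had 37.7 CPM in FP cells and 70.1 CPM in CV cells (-0.75).

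The glucose transporter Slc2a1 was present in both papillae at similar levels. Of the 21 FP cells 12 were on for it (57.1%, 34.02 to 78.2%), against 11 of the 32 CV cells (34.4%, 18.6 to 53.2%). In cells that were on it ranged from 55.1 to 810 CPM in FP (median 263) and from 73.5 to 1051 CPM in CV (median 301). The other cells were nearly empty of it, with at most 1.75 CPM in FP and 30.7 CPM in CV. That CV value stood on 2 counts of a shallow cell. The ranges of the papillae overlapped in the cells that were on, and the highest cell was a CV cell.

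Pooled Slc2a1 came to 4222 counts in FP cells, or 186 CPM (181 to 192), and to 4628 counts in CV cells, or 157 CPM (152 to 161). The ratio was 1.19 (1.14 to 1.24) and the log2 ratio after adding 10 CPM was 0.24, rank 4370 of 10918. That direction rested on single cells, since the highest held 28.2% of the counts in FP and 24.2% in CV. Without the highest cell of each library the levels were 143 CPM in FP and 144 CPM in CV, a log2 ratio of -0.011. No direction between the papillae is read from Slc2a1.

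The share of cells with Slc2a1 on moved with depth. In CV the cells that were on had a median of 1862994 counts, against 224021 in those that were off, and Spearman's rho with the total was 0.68 (n = 32). In FP the medians were 1323423 counts in cells that were on and 642821 in those that were off, with rho 0.43 (n = 21). Among cells with at least 914630 counts, 10 of 14 in FP were on for Slc2a1 (71.4%, 41.9 to 91.6%), against 9 of 14 in CV (64.3%, 35.1 to 87.2%), shares that lie closer than those over all kept cells. Whether depth accounts for the gap between the shares over all kept cells was not tested.

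Kcnj11 and Slc2a1 were on together in 5 of 7 FP cells with Kcnj11 (71.4%, 29.04 to 96.3%), and Slc2a1 was on in 7 of 14 FP cells with Kcnj11 off (50%, 23.04 to 76.96%). The remaining 2 Kcnj11 cells had no Slc2a1 count. Of the 3 cells with Abcc8 on, 2 had Slc2a1 on. All 3 genes were on in FP cell 15 alone, with 58.03 CPM of Slc2a1. Slc2a1 without either channel gene was found in 6 FP cells and 11 CV cells, and none of the 3 genes in 6 FP cells and 21 CV cells. Pearson's r between Kcnj11 and Slc2a1 over the 21 FP cells was 0.22 and Spearman's rho 0.19.

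**Figure D3:**
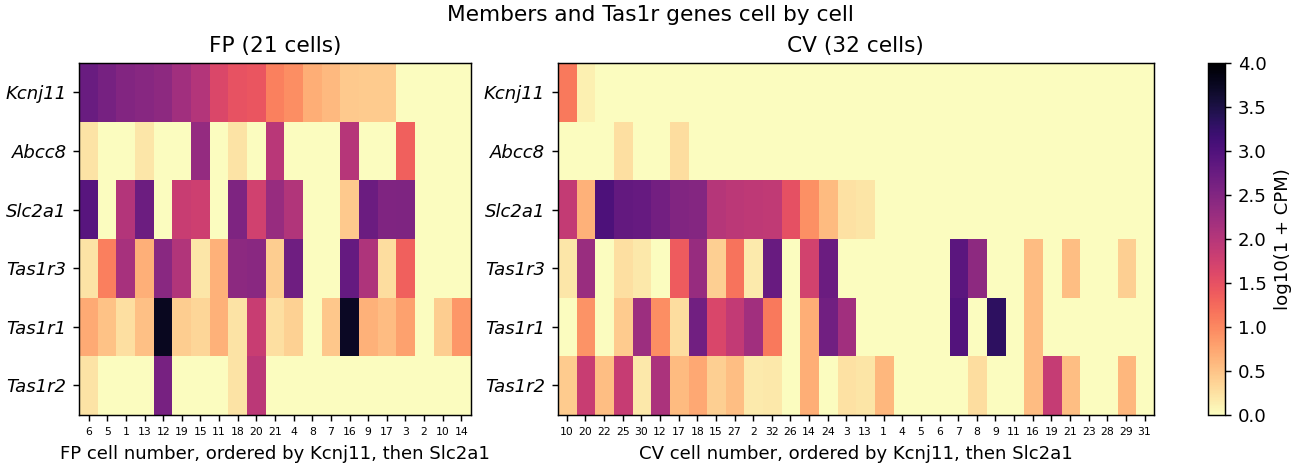
Level of the 3 genes and of Tas1r3, Tas1r1 and Tas1r2 in every kept cell, as the log10 of 1 plus CPM, with FP cells left of CV cells and cells ordered by Kcnj11 and then Slc2a1. The 7 FP cells with Kcnj11 on include 5 with Slc2a1 on, 3 with Tas1r3 on and 1 with Abcc8 on.

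Tas1r3, the subunit shared by the sweet and umami receptors, was on in some FP cells with Kcnj11 on and in some with it off. It was on in 3 of 7 FP cells with Kcnj11 on (42.9%, 9.90 to 81.6%) and in 5 of 14 with it off (35.7%, 12.8 to 64.9%). The 3 cells with both had 109, 136 and 270 CPM of Tas1r3. The other 4 had 0.592 to 10.9 CPM. Pooled Kcnj11 was 113 CPM over the 8 FP cells with Tas1r3 on and 165 CPM over the 13 with Tas1r3 off. Pearson's r over the 21 FP cells was -0.06 and Spearman's rho 0.32.

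Tas1r3 was on in 1 of 3 FP cells with Abcc8 on, and in 7 of 18 FP cells with Abcc8 off (38.9%, 17.3 to 64.3%). Slc2a1 cells had Tas1r3 on in shares with wide intervals in both papillae. In FP, Tas1r3 was on in 6 of 12 cells with Slc2a1 on (50%, 21.1 to 78.9%) and 2 of 9 with it off (22.2%, 2.81 to 60.01%). For CV, Tas1r3 was on in 2 of 11 cells with Slc2a1 on (18.2%, 2.28 to 51.8%) and 5 of 21 with it off (23.8%, 8.22 to 47.2%). Whether the papillae differ in this was not tested.

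The pooled level of Slc2a1 ran the other way from its share in FP. It was 120 CPM over the 8 FP cells with Tas1r3 on and 253 CPM over the 13 with Tas1r3 off, and 43.5 CPM over the 7 CV cells with Tas1r3 on and 203 CPM over the 25 with Tas1r3 off. The 3 FP cells richest in Slc2a1, at 810, 538 and 515 CPM, had 0.681, 117 and 3.55 CPM of Tas1r3. Across cells Pearson's r between Slc2a1 and Tas1r3 was -0.05 in FP (n = 21) and -0.10 in CV (n = 32), while Spearman's rho was positive, at 0.33 in FP and 0.25 in CV.

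**Figure D4:**
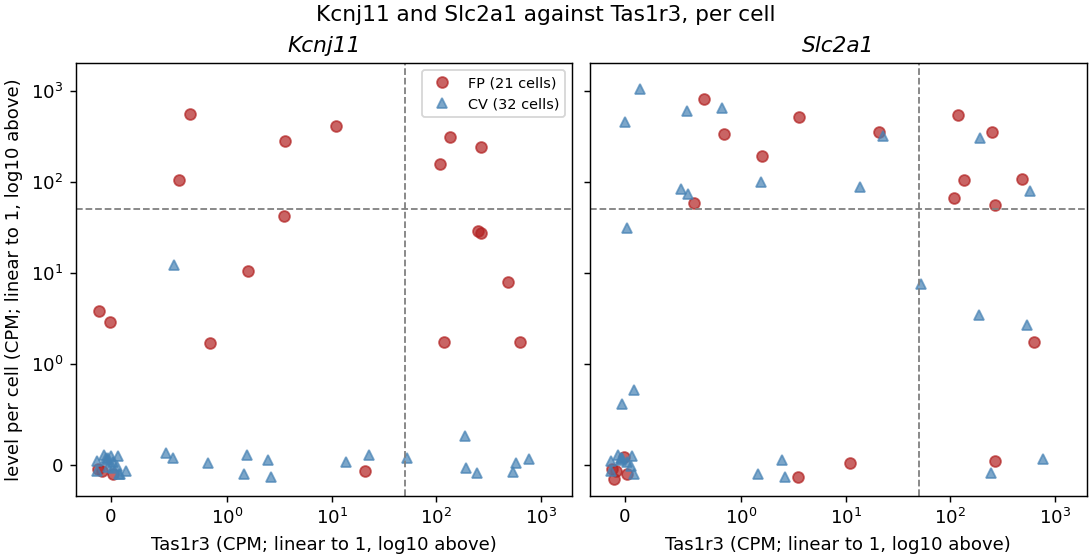
Kcnj11 and Slc2a1 against Tas1r3 in each kept cell, in CPM, with FP and CV cells in colours given by the legend; dashed lines mark 50 CPM and cells at 0 are spread slightly. Tas1r3 is on in 3 of the 7 FP cells with Kcnj11 on, in 6 of the 12 FP cells with Slc2a1 on and in 2 of the 11 CV cells with Slc2a1 on.

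The Tas1r partners of these cells were few. FP cell 12 combined 243 CPM of Kcnj11 with 5800 CPM of Tas1r1, the umami receptor subunit, 392 CPM of Tas1r2, the sweet receptor subunit, and 270 CPM of Tas1r3, and it had no count of Abcc8 or Slc2a1. FP cell 16 had a like receptor profile without Tas1r2 (5415 CPM of Tas1r1 and 625 CPM of Tas1r3) and the other channel gene, with 98.1 CPM of Abcc8, 1.75 CPM of Kcnj11 and 1.75 CPM of Slc2a1. FP cell 20, with all 3 Tas1r genes on, had 27.1 CPM of Kcnj11, 55.1 CPM of Slc2a1 and no Abcc8. These are single cells, named after their values were seen.

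In CV, Tas1r2 was on in 4 cells, and 2 of them had Slc2a1 on. In CV cell 19 its 70.1 CPM stood on 3 counts, in a barcode of 42809 counts with 79.0% ribosomal RNA. CV cell 12 had 452 CPM of Slc2a1 and 127 CPM of Tas1r2, and CV cell 25 had 639 CPM of Slc2a1 and 68.0 CPM of Tas1r2. Both had under 1 CPM of Tas1r3. No kept CV cell had Slc2a1, Tas1r2 and Tas1r3 on together.

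Bitter receptor genes (Tas2r) were present beside the members. At least 1 Tas2r gene was on in 5 of 7 FP cells with Kcnj11 on, against 8 of 14 with it off. The summed Tas2r level was 5.47 to 2002 CPM (median 284) in FP cells with Kcnj11 on and 0 to 4075 CPM (median 342) in those with it off, so the ranges overlapped. All 11 CV cells with Slc2a1 on had a Tas2r gene on, as did 17 of 21 with it off.

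The rest of the sugar transport machinery was sparse. Of 12 facilitative sugar transporter genes (Slc2a), 7 were in the tables and 2 reached 10 CPM, Slc2a1 and Slc2a8, an intracellular hexose transporter. Slc2a8 had 18.2 CPM in FP cells and 13.9 CPM in CV cells, and 99.8% of its FP counts lay in 1 cell. Slc2a4, the insulin-regulated transporter GLUT4, had 1 count in each library. Slc2a12 had 7.95 CPM in FP cells, with 98.9% in 1 cell, and was not listed for CV. Slc2a9, Slc2a10 and Slc2a13 were at 0.662 CPM or below in both libraries.

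The sodium-coupled glucose transporter Slc5a1 (SGLT1), which absorbs glucose in the intestine, had 2 counts in FP cells and 0 in CV cells. Slc5a10 had 13 counts in FP cells, Slc5a9 had 3 counts in FP cells and Slc5a4b had 1 count in CV cells, each with none in the other library, and Slc5a2 had none in either. Slc5a4a, of the SGLT3 family, was not listed for FP, taken as 0, and had 930 counts or 31.5 CPM (29.5 to 33.6) in CV cells, 2 of which were on for it. Its CV level was 238-fold the level of a 3-count floor in the pooled FP library, where the upper bound for 0 counts was 0.163 CPM. The top CV cell held 65.1% of its counts. Of 6 disaccharidase and amylase genes, Amy1, which breaks down starch, was the one in the tables, with 104 counts in CV cells, 94.2% of them in 1 cell, and none in FP cells.

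Genes of glucose phosphorylation and sensing lay mostly within 2-fold between the papillae. Of 6 that reached 10 CPM, 0 were 2-fold higher in FP and 1 was 2-fold higher in CV, against 16.98% and 21.04% of all genes. Their median log2 ratio was -0.19, against -0.05 over all 10918 genes. Hk1, the hexokinase that commits glucose to glycolysis in most tissues, had 98.3 CPM in FP cells and 110 CPM in CV cells. Txnip, a glucose-responsive inhibitor of glucose uptake, had 113 CPM in FP cells and 217 CPM in CV cells (log2 ratio -0.89), and Mlxip, which encodes the sensor MondoA, had 4.42 CPM in FP cells and 22.5 CPM in CV cells (-1.17), with 87.7% of its CV counts in 1 cell.

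Of 18 genes of glycolysis and of pyruvate and lactate transport, 1 was 2-fold higher in FP and 3 were 2-fold higher in CV, against 16.98% and 21.04% of all genes, and the CV share is near that background. The median log2 ratio was -0.42. The isoforms of phosphofructokinase, a control step of glycolysis, differed. Pfkm, the muscle isoform, had 43.6 CPM (40.9 to 46.4) in FP cells and 0 counts in CV cells (upper bound 0.125 CPM). Its FP level was 429-fold the level of a 3-count floor in CV, but 73.3% of it lay in 1 cell. Pfkp, the platelet isoform, had 15.1 CPM in FP cells and 242 CPM in CV cells (-3.33), and Pfkl, the liver isoform, had 59.5 CPM in FP cells and 73.7 CPM in CV cells. Ldhb, a lactate dehydrogenase subunit, had 2.08 CPM in FP cells and 79.0 CPM in CV cells (-2.88), and Slc16a3, a lactate exporter, 33.2 CPM in FP cells and 128 CPM in CV cells (-1.67).

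Receptors for hormones described as acting on sweet-sensing cells, with their adaptors, made up a list of which 6 genes reached 10 CPM. None was 2-fold higher in FP and 3 were 2-fold higher in CV, against 16.98% and 21.04% of all genes. The median log2 ratio was -0.92. Insr, the insulin receptor, had 8.12 CPM in FP cells and 44.3 CPM in CV cells (-1.58). Insr was on in 3 CV cells, and its top cell held 55.2% of the counts in CV and 71.2% in FP. Irs1, an adaptor of the insulin receptor, had 2 counts in FP cells and 40.1 CPM in CV cells (-2.31). It was on in 3 CV cells, with 59.4% of the CV counts in 1 cell. Oxtr, the oxytocin receptor, had 4 counts in FP cells and 10.6 CPM in CV cells (-1.01), with 95.5% of the CV counts in 1 cell. Lepr, the leptin receptor, had 12.9 CPM in FP cells and 19.1 CPM in CV cells (-0.34), and Igf1r, the receptor for insulin-like growth factor, had 129 CPM in FP cells and 75.9 CPM in CV cells (0.70).

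**Figure D5:**
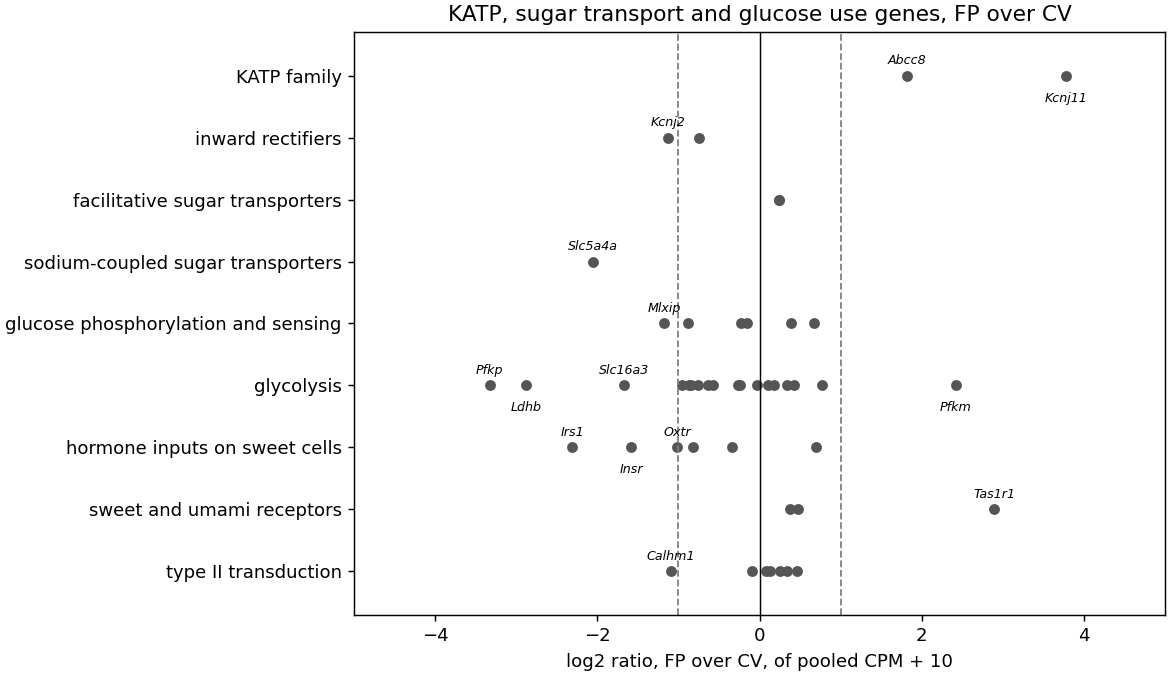
Log2 ratio of FP over CV, after adding 10 CPM to each, for genes that reached 10 CPM in a library, by gene list; each point is a gene and the dashed lines mark a 2-fold difference. Kcnj11 at 3.79 and Abcc8 at 1.82 are the eligible genes of the channel family, and the median of the glycolysis list is -0.42.

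Within FP, the cells with Kcnj11 on were set beside those with it off across the same lists, as a description of 7 against 14 cells of 1 library. Among 9864 genes that reached 10 CPM in a set, 25.6% were 2-fold or more higher with Kcnj11 on and 24.1% with it off, so a 2-fold gap was common. Of 17 glycolysis genes, 5 were higher with Kcnj11 on and 2 with it off, with a median log2 ratio of 0.13, against 0.06 over all genes. Pfkl had 2.52 CPM in cells with Kcnj11 on and 118 CPM in cells with it off, and was on in 0 of 7 and 6 of 14 cells. Ldha, the lactate dehydrogenase subunit of glycolytic tissues, had 131 CPM in cells with Kcnj11 on and 39.2 CPM in cells with it off, and was on in 4 of 7 and 2 of 14. Txnip had 43.8 CPM in cells with Kcnj11 on and 184 CPM in cells with it off, and was on in 2 of 7 and 7 of 14.

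Of 6 transduction genes of type II cells, none was 2-fold apart between these sets, against 25.6% and 24.1% of all genes. Gnat3, which the limit on cells used, is among the 6. Trpm5, the cation channel that depolarises type II cells, had 2412 CPM in cells with Kcnj11 on and 1478 CPM in cells with it off.

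Markers of skeletal muscle, vessels and erythrocytes, other cells known to carry Kcnj11 or Slc2a1, were mostly at or near 0 in the Kcnj11 cells. Markers of nerve and keratinocytes, also such cells, were not. Pooled, they summed to 71.3 and 170 CPM with Kcnj11 on, against 206 and 238 CPM with it off. Of 6 skeletal muscle markers analysed, 5 were at 0 in FP cells with Kcnj11 on, and Mylpf was at 11.6 CPM, with a summed level of 0 to 31.97 CPM in a cell, against 0 in all FP cells with Kcnj11 off. Of 4 type III taste cell markers analysed, 2 were at 0 in both sets (Otop1 and Chga), with a sum of 0 to 6.50 CPM in cells with Kcnj11 on and 0 to 20.9 CPM in cells with it off. Pecam1 and Rgs5, markers of vessels, were at 0 in both sets, and so were the 2 immune markers analysed, Ptprc and Cd74. Erythrocyte markers summed to 0 to 0.313 CPM in cells with Kcnj11 on and 0 to 33.4 CPM in cells with it off. Tubb3, a marker of neurons, had 71.2 CPM in cells with Kcnj11 on and 206 CPM in cells with it off. In kept CV cells Pecam1 was at 36.3 CPM, and its part in the CV level of Slc2a1 was not tested.

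Keratinocyte markers were higher in the FP library. The 11 markers summed to 83.4 to 1473 CPM in kept FP cells and 0 to 482 CPM in kept CV cells. Within FP they summed to 108 to 358 CPM in cells with Kcnj11 on and 83.4 to 1473 CPM in cells with it off. The FP barcodes richest in Krt13 had at most 2.81 CPM of Kcnj11, as given above. Of 4 type I taste cell markers, 2 were at 0 (Slc1a3 and Kcnj1) in FP cells with Kcnj11 on, where the 4 summed to 0 to 161 CPM, against 0 to 4.19 CPM in cells with it off. Entpd2 made up most of it, and its part in the result was not tested.

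The genes whose level ran most like Kcnj11 over the 21 FP cells were sought among 3149 genes with at least 50 CPM pooled and on in at least 5 of those cells. Pearson's r of the natural log level was 0.90 for Pmepa1, a membrane inhibitor of TGF-beta signalling, 0.84 for Wapl, which releases cohesin from DNA, and 0.81 for Zranb1, a deubiquitinase. Lmo4, Picalm, Fam204a, Stk11, Kmt2a, Hook2 and Mydgf followed at 0.77 to 0.73. Pmepa1 was on in 6 of the 7 cells with Kcnj11 on and 1 of the 14 with it off. These values are the highest of many over few cells that share a library and differ in depth, so they describe these cells.

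For Abcc8, whose values rest on 3 cells, the highest r were those of Rrs1 (0.92), Swap70 (0.80), G3bp1 and Phf14 (both 0.78), Mllt6 (0.76), Stxbp2 (0.75), Rpa2 (0.74) and Huwe1 (0.73). For Slc2a1 the highest were Lrch4 and Prpsap1 (both 0.79) and Mon1b (0.77) in FP, and H2afy (0.89), Hint2 and Acadm (both 0.75) in CV. The 8 genes nearest to Slc2a1 in CV had an r with it of -0.24 (Aagab) to 0.27 (Tmed9) over the FP cells, with H2afy, a histone variant, at 0.06. Of the 8 nearest in FP, 7 had an r over the CV cells, of 0.03 (Fxr2) to 0.36 (Mon1b).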

How the data were processed

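Sorted GFP-positive taste cells were captured on the BD Rhapsody system and amplified by TAS-Seq, per the labels and the series design, and grouped by their tissue label into FP and CV. The deposited tables hold raw counts per gene and barcode, made by the authors. The submitters' processing notes name cutadapt 2.10, Bowtie2 2.3.4.1, Seurat 2.3.4 and mm10. The series design names distribution-based error correction. Strand use, handling of multi-mapping reads and collapsing of molecular barcodes are not stated in the labels. The authors' filters can be read in more than 1 way. The log base of the Gnat3 limit was taken as natural, and no mitochondrial or ribosomal RNA limit was used. Doublets were not called, and hashtag libraries were not analysed here.

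Counts of kept cells were pooled and scaled to CPM. Sums carry exact Poisson, ratios exact conditional binomial and shares exact Clopper-Pearson intervals. A gene missing from 1 table was taken as 0 there. Fold calls used log2(CPM + 10) and genes that reached 10 CPM in a library, and the scripts were tested on simulated data. Python 3.11.15, numpy 2.4.6, pandas 2.3.3, scipy 1.17.1 and matplotlib 3.10.9 were used. Positions are from GENCODE release M21, by symbol.

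The members, gene lists and markers were chosen with earlier results of these data known, and the 50 CPM level was chosen after the data were seen in earlier work. Members of the channel, Slc2a and Slc5a families found in the tables were always named. Other listed genes needed 10 CPM in a library, the largest log2 ratios first. The genes most like Kcnj11 (10), Abcc8 (8) and Slc2a1 (8 in each library) were taken by Pearson's r. Hk1, Oxtr, Lepr, Igf1r, Txnip, Pfkl, Ldha, Pgk1, Eno1, Aldoa, Tpi1, Gapdh, Trpm5, Amy1 and single cells were named after their values were seen. Alternatives were other cell limits, thinning, other levels for on, another pseudocount and filter, and leaving out the highest cell.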

Additional observations from a re-analysis of the deposited data

Results flagged for a closer look

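Signal of the members also stood in barcodes that missed the Gnat3 limit and were not kept. In 3 of the 8 such FP barcodes Slc2a1 passed the 3 counts taken as a floor, with 439 counts (137 CPM), 33 counts (8.09 CPM) and 6 counts (3.57 CPM). In 1 of the 29 such CV barcodes, of 4088415 counts, Abcc8 had 219 counts (53.6 CPM) and Slc2a1 had 480 counts (117 CPM). That CV barcode had no Kcnj11 count. It had 2211 CPM of Tas1r2 and 632 CPM of Tas1r3, with 14.9 CPM of Gnat3. No kept CV cell had Abcc8 on.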

How the results depend on the processing

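The 17 results were recomputed under 14 settings, giving 157 values, of which 133 stayed within the spread or factor allowed, 22 moved and 2 changed sign. For shares the spread allowed was the exact interval of the main value, and no direction was checked. For 1 of 3 cells that interval ran from 0.84 to 90.6%, so staying within it says little. The log2 ratios of FP over CV for Kcnj11 and Abcc8 were 3.24 and 0.74 with no Gnat3 limit, 3.59 and 1.67 with cells thinned to 71770 counts, 3.98 and 1.98 without mitochondrial and ribosomal RNA counts, 3.58 and 1.07 without the highest cell, 3.45 and 1.57 as the mean CPM of a cell, and 6.30 and 4.60 with 1 CPM added. Abcc8 thus fell under 2-fold with no Gnat3 limit, where the CV barcode with 219 counts entered. Its FP level also fell there, from 25.7 to 16.8 CPM, as left-out FP barcodes entered. The part of each change was not tested. Slc2a1 was -0.026 with no Gnat3 limit, -0.011 without the highest cell, 0.10 thinned and 0.44 as the mean CPM of a cell. At 1 count, Kcnj11 was on in 81.0% of FP cells, and Tas1r3 was found in 88.2% of FP cells with Kcnj11, 100% with Abcc8 and 100% with Slc2a1, and in 70.6% of CV cells with Slc2a1. By the same rule Tas1r3 was found in 76.2% of all kept FP cells and 53.1% of all kept CV cells. It was also found in 3 of the 8 left-out FP barcodes. At 100 CPM, Tas1r3 was on in 0% of FP cells with Abcc8 (1 cell). With 50 CPM needed in either library, 855 of 5028 genes were 2-fold or more higher in FP and 862 were so in CV, since fewer genes were tested. In CV, 5 kept barcodes had adjoining numbers, each within 10 of the next, and the 4 shallower ones had 54413 to 121188 counts. Whether they are separate cells was not tested. Counting them once left 28 CV cells, a setting chosen after seeing the data. Kcnj11 and Abcc8 were then on in 0 of 28 CV cells, and Slc2a1 in 11 of 28 (39.3%). No paired analysis was possible because each papilla had 1 library. For the other values that moved or changed sign the cause was not tested. Shares over 7 or 3 cells have wide intervals.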
